A study of Mus musculus with 68 samples.

Results

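The matrix metalloproteinases (MMPs), the ADAMTS proteases and their tissue inhibitors (TIMPs) were examined in cultured mouse bone stromal cells with 1 or both copies of Ezh2 intact. The genes were chosen by symbol alone: Mmp, Adamts or Timp followed by a number, with a letter allowed after an Mmp number. This gave 46 genes of the 27179 identifiers in the count table, made up of 23 Mmp, 19 Adamts and 4 Timp genes. Of these, 36 passed the low-count filter (16 Mmp, 16 Adamts and 4 Timp) among 14897 genes tested. A gene that is high in a single group can pass that filter through that group alone.

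MMPs are zinc endopeptidases that are made as inactive precursors and cleave collagens, proteoglycans and other matrix proteins, at the cell surface or after secretion. ADAMTS proteases are secreted zinc enzymes with thrombospondin repeats, which cleave proteoglycans such as aggrecan and versican, process procollagen ends or act on microfibrils. TIMPs bind the active site of these enzymes and block them, and in bone the balance of the 3 families takes part in cartilage replacement and in matrix turnover by osteoblast-lineage cells and osteoclasts.

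RNA sequencing was done on mesenchymal stromal cells (MSCs) grown in growth medium from the long bones of mice. The Het groups were Ezh2fl/+:Prxx-1-Cre and the WT groups were Ezh2+/+:Prrx-1-Cre, spelled as in the labels. All groups thus carried a Cre recombinase driven by the promoter of Prrx1, a gene of limb mesenchyme, and Het cells had 1 floxed allele of Ezh2, which encodes the methyltransferase of Polycomb repressive complex 2. Mice were 3 or 12 months old, and no treatment was labelled. There were 6 cultures of Het 12M (S1, S9, S11, S15, S16, S17) and 3 of Het 3M (S8, S10, S14). WT 3M was represented by 4 cultures, S3, S4, S5 and S12, and WT 12M by another 4, S2, S6, S7 and S13, while the series text speaks of 3 per group. Cultures labelled male were S8 and S10 in Het 3M, S17 in Het 12M, S5 and S12 in WT 3M, and S2 and S13 in WT 12M. All others were labelled female, so labelled sex was unbalanced between Het 3M and Het 12M. The labels do not say whether a culture came from 1 mouse, so p-values measure the spread between these cultures, which may be technical.

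Depth was 13687876 to 28597221 counts per culture. Levels are in CPM, counts scaled to a common library size with TMM factors. At 3 months Ezh2 itself was at 9.17 to 14.3 CPM in WT cells against 8.47 to 12.8 CPM in Het cells. At 12 months the WT range was 7.64 to 35.7 CPM and the Het range 8.62 to 25.2 CPM, so its level did not part the genotypes. The count covers the whole gene and does not show the floxed exons alone. Of 14 stromal markers, 14 had counts in every group, and Prrx1 ran from 171 to 896 CPM. Summed markers of other cells varied between cultures. Chondrocyte markers ran from 2208 CPM in WT 3M S4 to 22093 CPM in WT 12M S7. Smooth muscle and pericyte markers ran from 354 CPM in WT 12M S2 to 6824 CPM in WT 12M S6. Endothelial markers ran from 1.64 CPM in Het 12M S15 to 95.4 CPM in WT 3M S5. Macrophage and Schwann cell markers each stood far apart in 1 culture. Summed macrophage markers reached 42077 CPM in Het 12M S9, against 35.6 to 2930 CPM in the other 16 cultures. Summed Schwann cell markers reached 1206 CPM in WT 12M S6, against at most 114 CPM elsewhere, and Sox10 was 231 CPM there. Transcripts linked to the sex chromosomes failed to match the labelled sex in the whole WT 12M group (4 of 4 libraries) and matched it in the other 13. Xist, a transcript of female cells, was at 363 and 295 CPM in S2 and S13, labelled male, and at 0.192 CPM in S6, labelled female. S7, labelled female, held Xist at 81.6 CPM together with Y-linked transcripts (mean of at least 1 CPM), so it was mixed and not reversed. Each direction drawn from WT 12M thus rests on libraries whose labels are in doubt. In RNA from whole cultures, fewer cells of a type and less RNA per cell cannot be told apart.

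Mmp3, which encodes stromelysin-1, had the smallest p of the 36 members in 3 of the 5 comparisons. In the 4 libraries labelled WT 12M it stood at 87.6 to 719 CPM, above all WT 3M cultures (17.8 to 36.1 CPM) and all Het 12M cultures (1.37 to 62.7 CPM). Adamts1 and Adamts5, neighbouring genes for aggrecan- and versican-cleaving enzymes, had lower means in WT 12M than in WT 3M. The most abundant members per length, Timp1, Timp2, Timp3, Mmp2, Mmp13 and Mmp14, overlapped between the groups in the 4 pairs compared. By label, each pair differs in genotype or in age but not in both, and some pairs also differ in the balance of labelled sex. No gene passed the threshold: with edgeR's quasi-likelihood test and Benjamini-Hochberg adjustment over all 14897 genes, an adjusted p under 0.05 was reached by 0 genes, or 0% of all genes, in each of the 5 comparisons, and by 0 of the 36 members. The alternative tools differed here, as DESeq2 called Mmp3 in 3 comparisons. Limma voom with sample quality weights called between 0 and 7 of the 36 members. Of all 14897 genes it called 1 where 0 members were called, and 1508 where 7 were called.

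At an unadjusted p under 0.05, the share of members was read against the share of all genes. For Het 12M against WT 12M, 9 of 36 members (2 higher, 7 lower in Het) were under that level, or 25%, against 8.36% of all genes. Without WT 12M S6 it was 5 of 36 members (2 higher, 3 lower) against 6.5% of all genes, and without S6, Het 12M S9 and Het 12M S15 it was 7 of 36 (4 higher, 3 lower) against 11.9%. All genes under that level also leaned lower in Het, with 512 higher and 734 lower. They numbered 380 and 584 without S6, and 790 and 964 without the 3 cultures. Leaving out Het 12M S9 alone gave 2 higher and 5 lower members, and leaving out Het 12M S15 alone gave 2 higher and 6 lower. The excess of lower members thus shrank without S6 and was gone only without all 3 cultures. WT 12M against WT 3M gave 4 of 36 (2 higher, 2 lower in WT 12M), against 8.22% of all genes. Het 3M against WT 3M gave 1 of 36, against 1.6% of all genes, and Het 12M against Het 3M gave 0 of 36, against 3.28%. The genotype by age interaction, which asks whether the Het minus WT difference at 12 months departs from that at 3 months, gave 5 of 36 (1 above 0, 4 below), against 5.76% of all genes. Here too the balance of directions turned, to 3 above and 2 below without WT 12M S6 (6.4% of all genes) and to 7 above and 3 below without S6, Het 12M S9 and Het 12M S15 (13.4%). The comparisons share cultures with each other, so their counts are not independent.

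**Figure D1:**
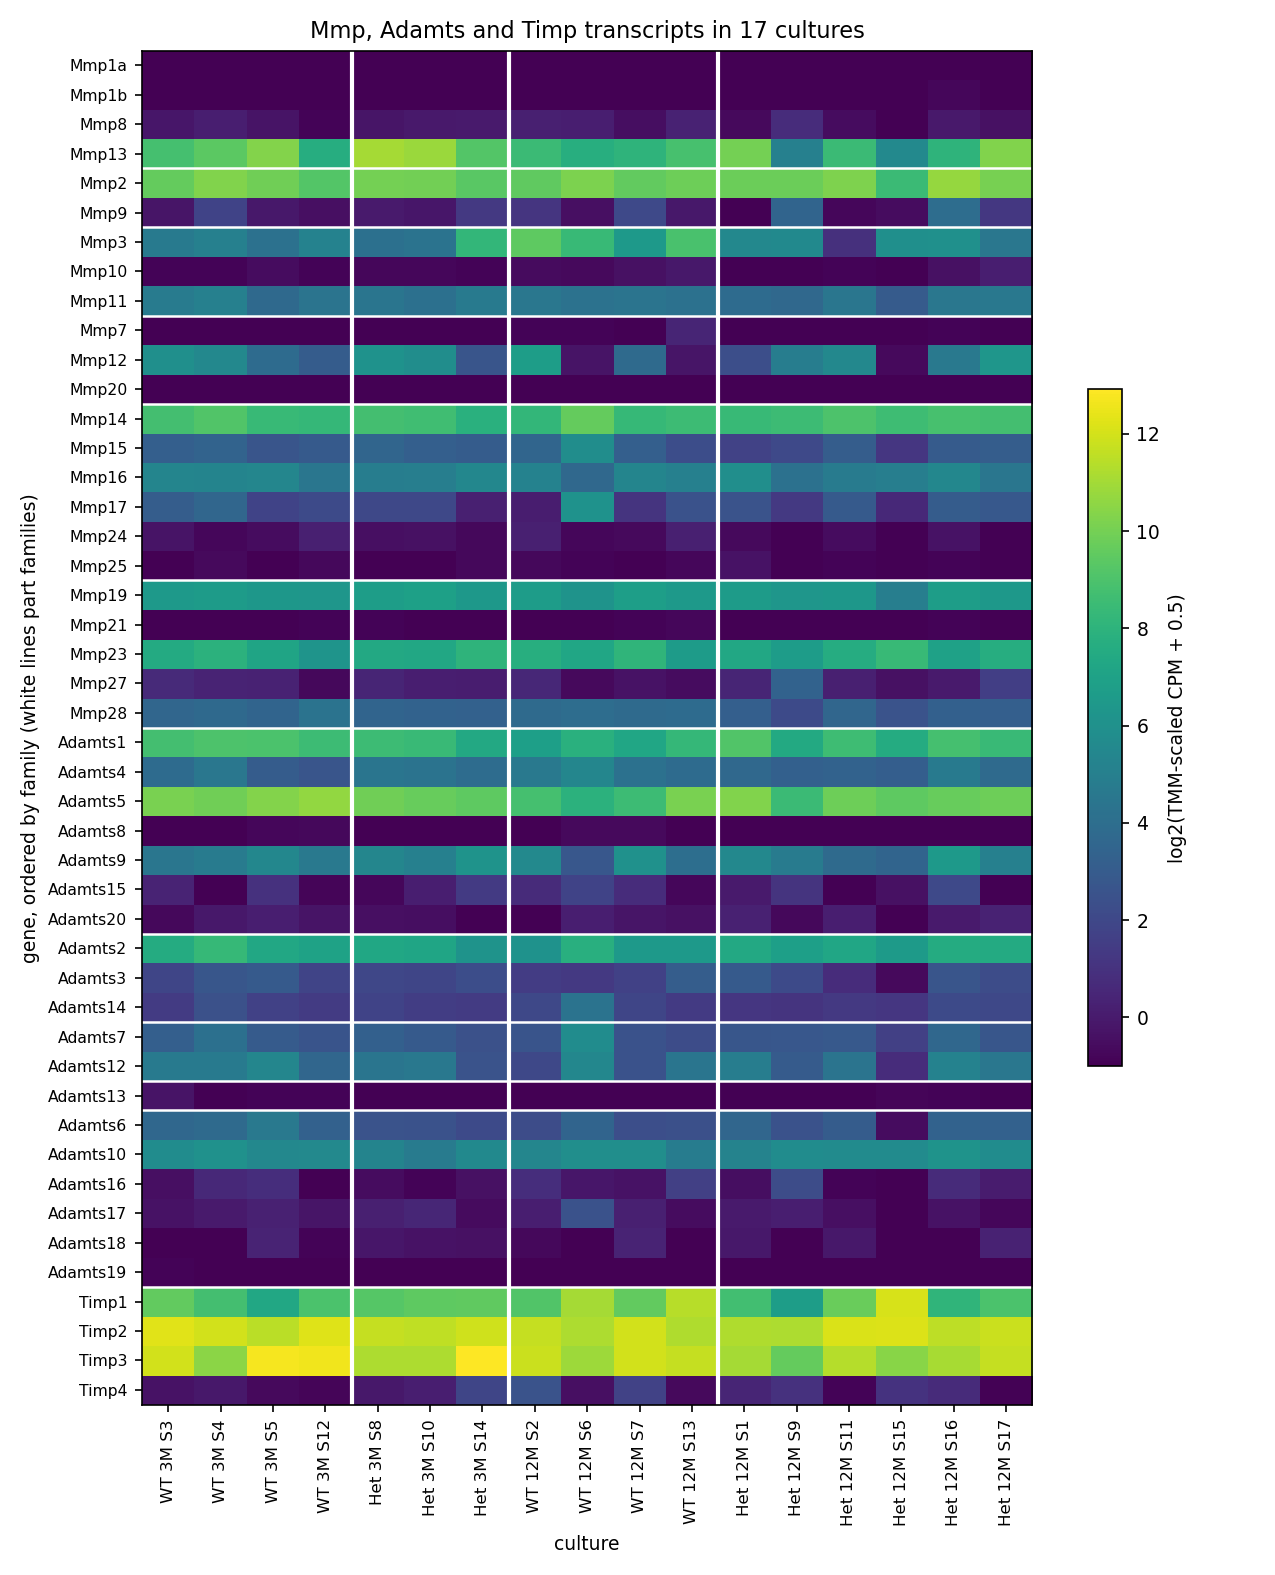
Levels of the 46 genes (rows, ordered by family) in the 17 cultures (columns, ordered by group), as log2 of TMM-scaled CPM plus 0.5. A few rows, Timp1 to Timp3, Mmp2, Mmp13, Mmp14 and Adamts5, hold most of the signal in every group, and WT 12M S6 stands out in Mmp15, Mmp17, Adamts7, Adamts14 and Adamts17.

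Most of the 46 genes had low levels. Over the 17 cultures, 11 had a mean of at least 100 CPM, 6 lay between 20 and 100, 12 between 1 and 20, and 17 under 1 CPM. The 10 genes that were not tested were Mmp1a, Mmp1b, Mmp7, Mmp10, Mmp20, Mmp21, Mmp25, Adamts8, Adamts13 and Adamts19, and the highest mean among them was 0.148 CPM, for Mmp10. Mmp1a and Mmp20 had 0 counts in 347421515, which allows up to 0.00863 CPM over the 17 cultures by counting error alone.

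Divided by exon length, so that genes can be compared, the inhibitors led: the mean level was 1106 CPM per kb for Timp1, 946 for Timp2 and 705 for Timp3. Their ranges over the cultures overlapped (121 to 4884, 627 to 1331 and 169.6 to 1642 CPM per kb), so no order among these inhibitors goes beyond their spread. Among the enzymes the order of levels per kb was Mmp2 (304), Mmp13 (251), Mmp14 (158) and Mmp23 (126), then Adamts5 (79.7), Mmp3 (75.5) and Adamts1 (67.9). Each of these enzymes overlapped in range with the next. Mmp19 (25.9), Adamts2 (20.6) and Adamts10 (12.1 CPM per kb) followed, and the other tested members were under 10 CPM per kb.

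**Figure D2:**
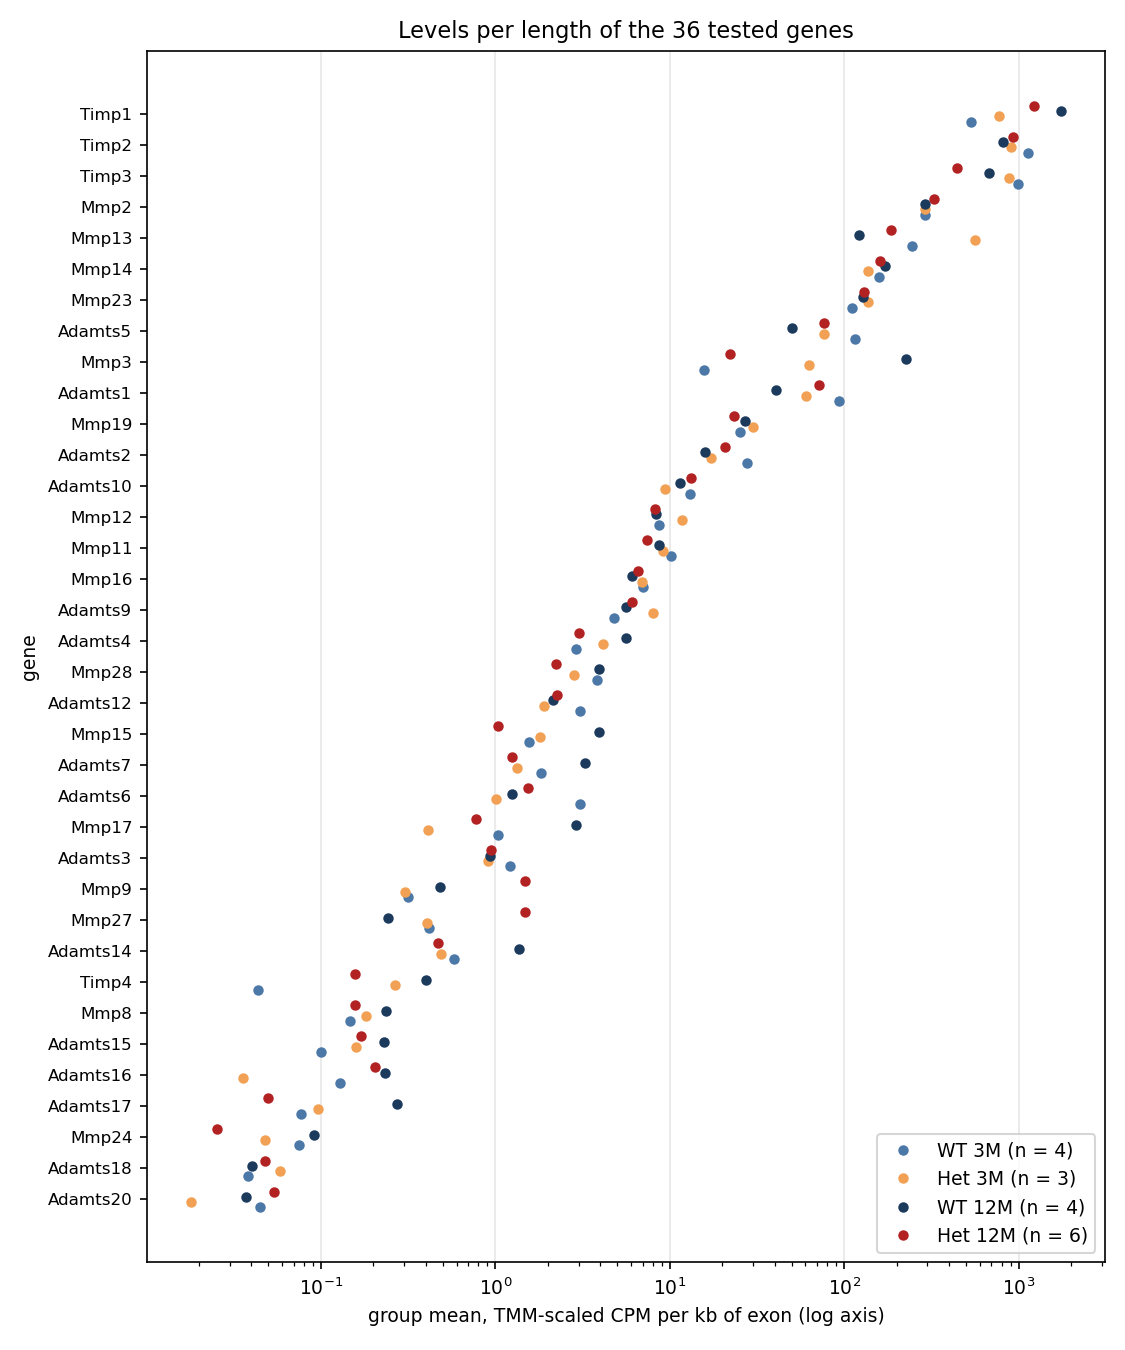
Group means of the 36 tested genes in TMM-scaled CPM per kb of exon (log axis), with 1 point per group. Timp1, Timp2 and Timp3 lie at the top, and Mmp3 is spread most widely among the abundant genes, from 15.6 in WT 3M to 225 CPM per kb in WT 12M.

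Summed per length, the 4 Timp genes exceeded the 23 Mmp genes in every culture. The Timp to Mmp ratio was 3.54 ± 2.15 (SD, n = 4) for WT 3M and 2.25 ± 1.32 (n = 3) for Het 3M. At 12 months it was 3.31 ± 1.02 (n = 4) with WT and 3.50 ± 3.91 (n = 6) with Het cells, and the groups overlapped. The summed Adamts level was 247 to 281 CPM per kb in WT 3M and 102 to 196 in WT 12M, with no overlap and no test. In Het 3M it was 143 to 214 and in Het 12M 111 to 284 CPM per kb, the first below all WT 3M cultures and the second across the ranges of the other 3 groups. Adamts5 and Adamts1 made up most of that sum, 39.5 ± 9.53% and 33.1 ± 5.17% (SD, n = 17).

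Of the collagenases, Mmp13 was abundant, Mmp8 was at 0 to 1.19 CPM, and Mmp1a and Mmp1b, the mouse counterparts of human MMP1, had 0 and 2 counts in all. Mmp13 belongs to a run of 10 Mmp genes on chromosome 9 (Mmp13, Mmp12, Mmp1b, Mmp3, Mmp1a, Mmp10, Mmp8, Mmp27, Mmp20 and Mmp7) that spans 427 kb, chr9:7272514-7699585 in mm10 with RefSeq positions. No other gene of the table lies inside it. The promoters of 4 of these genes are shown because neighbours that carry the same motifs near their start differed widely in level, from 251 CPM per kb for Mmp13 and 75.5 for Mmp3 to 9.01 for Mmp12 and 0.0857 for Mmp10. Each runs from 250 bases before to 50 bases after a RefSeq start on GRCm38.p6, plus strand, 5′ to 3′, with matches to the AP-1 motif TGANTCA and to TATAAA in capitals. Mmp12 has 2 starts in the RefSeq table, and the one that holds the motifs is given. Its TATAAA lies after that start, while in the windows of Mmp13, Mmp3 and Mmp10 both motifs lie before it.
Mmp13, chr9:7272264-7272563: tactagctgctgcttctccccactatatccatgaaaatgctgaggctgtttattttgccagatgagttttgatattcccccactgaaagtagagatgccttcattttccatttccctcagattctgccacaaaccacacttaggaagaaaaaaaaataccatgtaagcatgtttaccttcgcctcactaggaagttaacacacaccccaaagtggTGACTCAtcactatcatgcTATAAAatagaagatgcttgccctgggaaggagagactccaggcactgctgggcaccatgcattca
Mmp12, chr9:7347124-7347423: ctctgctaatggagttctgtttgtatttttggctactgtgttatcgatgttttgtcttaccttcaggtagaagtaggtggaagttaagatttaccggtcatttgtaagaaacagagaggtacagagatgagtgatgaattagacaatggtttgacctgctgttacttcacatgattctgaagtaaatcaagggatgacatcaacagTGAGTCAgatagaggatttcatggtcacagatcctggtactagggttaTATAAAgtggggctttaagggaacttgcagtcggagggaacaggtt
Mmp3, chr9:7445572-7445871: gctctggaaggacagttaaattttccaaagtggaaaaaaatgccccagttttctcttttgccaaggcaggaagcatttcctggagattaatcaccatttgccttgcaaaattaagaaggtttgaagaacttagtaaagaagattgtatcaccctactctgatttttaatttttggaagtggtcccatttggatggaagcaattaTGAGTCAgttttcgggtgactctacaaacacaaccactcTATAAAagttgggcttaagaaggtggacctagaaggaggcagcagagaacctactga
Mmp10, chr9:7502092-7502391: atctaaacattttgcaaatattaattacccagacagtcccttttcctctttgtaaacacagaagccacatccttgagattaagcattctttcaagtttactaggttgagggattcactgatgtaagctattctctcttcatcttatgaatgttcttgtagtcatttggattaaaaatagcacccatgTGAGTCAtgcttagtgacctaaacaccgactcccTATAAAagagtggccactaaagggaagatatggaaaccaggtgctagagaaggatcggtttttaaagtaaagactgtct

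AP-1 is the Fos and Jun transcription factor complex, long known to act on the promoters of inducible MMP genes. Among the 32 members with a RefSeq promoter, TGANTCA (either strand) was found in 8 of 10 genes of the run and in 0 of the 22 others, and 7.81% of 32851 promoters of the same length hold it. TATAAA was found in 9 of 10 genes of the run and in 2 of the 22 others, against 13.6% of all promoters. AACCACA, bound by RUNX factors, was found in Mmp13, Mmp27 and Mmp7, against 5.27% of all promoters. The motifs did not follow the level, since Mmp1a and Mmp20, with 0 counts, also carry TGANTCA. In the 4 windows shown no match overlaps another. A match describes letters in this window and is not evidence of binding.

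**Figure D3:**
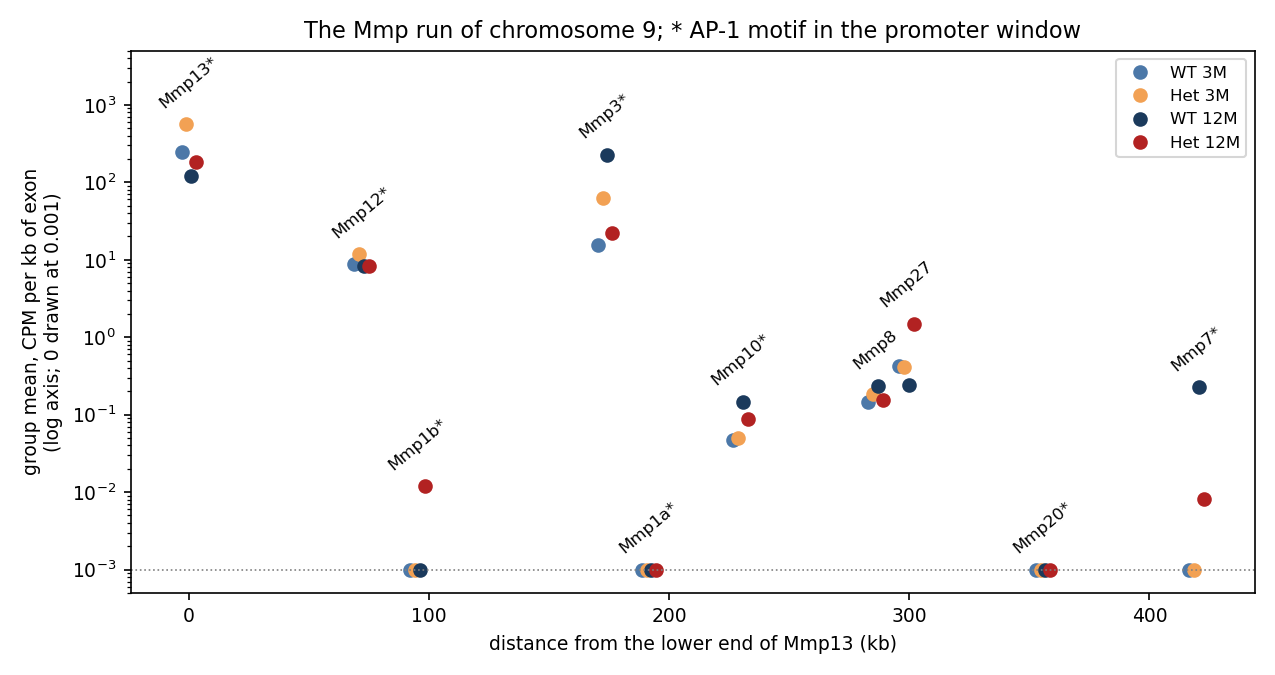
Group mean level of each Mmp gene of the chromosome 9 run (CPM per kb of exon, log axis, 0 drawn at 0.001) against its distance in kb from the lower end of Mmp13. Mmp13 and Mmp3 are high, Mmp12 is intermediate, and the genes beyond Mmp3 are at or under 1.48 CPM per kb, with an asterisk for a promoter that holds the AP-1 motif.

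Mmp13 (Entrez Gene 17386, chr9:7272514-7283333) encodes collagenase-3, which cleaves fibrillar collagen and is made by hypertrophic chondrocytes and osteoblasts. It was at 2073, 1829 and 593 CPM in Het 3M S8, S10 and S14, and at 454, 688, 1278 and 207 CPM in WT 3M S3, S4, S5 and S12. The older WT cultures had 353, 215, 269.9 and 468 CPM in WT 12M S2, S6, S7 and S13, while Het 12M ranged from 33.6 CPM in S9 to 1237 CPM in S17, with a median of 314 CPM. Het 3M S8 and S10 were the highest of all cultures and Het 12M S9 and S15 the lowest. The groups overlapped in each of the 4 pairs compared, while all 3 Het 3M cultures were above all 4 libraries labelled WT 12M, a pair that differs in both genotype and age. The log2 difference of Het 12M minus Het 3M was -1.60 ± 0.83 (SE), with p = 0.0729 and adjusted p = 0.946, and -1.06 (p = 0.107) without WT 12M S6, Het 12M S9 and Het 12M S15. Het 3M S8 and S10 and Het 12M S17 are labelled male, and the other Het cultures female. With a term for labelled sex the edgeR value was -1.056 (p = 0.229). With a covariate of Y-linked transcript levels it was -1.22 (p = 0.193). Summed osteoblast markers reached 761 CPM in Het 3M S14, 437 CPM in S8 and 392 CPM in S10. They spanned 33.4 to 252 CPM over Het 12M, 118 to 225 CPM over WT 3M and 84.8 to 476 CPM over WT 12M. The 476 CPM was in WT 12M S7, where Mmp13 was 269.9 CPM. The part of osteoblast markers in the Mmp13 values was not tested. Het 3M S8 and S10 were also the most alike of all pairs of cultures, with a chi-square per degree of freedom of 19.5 against 43.5 for the next pair and at most 1.06 between technical replicates.

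The gelatinases differed widely in level. Mmp2 (Entrez Gene 17390, chr8:92827290-92853421), a gelatinase of stromal cells, was at 792, 1255, 963 and 584 CPM in WT 3M S3, S4, S5 and S12, and at 1021, 997 and 660.0 CPM in Het 3M S8, S10 and S14. It was at 739, 1149.5, 769 and 909.8 CPM in WT 12M S2, S6, S7 and S13, and in Het 12M from 354 CPM in S15 to 1661 CPM in S16, with a median of 981 CPM. All 4 groups overlapped, with a ratio of group means between 0.992 and 1.13 in the 4 pairs compared. Mmp9, the gelatinase of osteoclasts, neutrophils and macrophages, ran from 0 to 15.2 CPM, with 15.2 CPM in Het 12M S16 and 10.6 in Het 12M S9, the culture with the highest macrophage markers, and under 4 CPM in the other 15.

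Among the stromelysins, Mmp3 (Entrez Gene 17392, chr9:7445822-7455975) encodes an enzyme that cleaves proteoglycans and fibronectin and activates other MMP precursors. It was at 25.7, 33.1, 17.8 and 36.1 CPM in WT 3M S3, S4, S5 and S12, and at 17.3, 19.1 and 302 CPM in Het 3M S8, S10 and S14. The older cultures had 719, 335, 87.6 and 479 CPM in WT 12M S2, S6, S7 and S13, while Het 12M ranged from 1.37 CPM in S11 to 62.7 CPM in S16, with a median of 46.4 CPM. All 4 libraries labelled WT 12M thus lay above all 4 WT 3M and all 6 Het 12M cultures, and in Het 3M the value of S14 was far above those of S8 and S10. Summed chondrocyte markers, which also varied, were at 3198 CPM in WT 12M S6, within the Het 12M range of 2423 to 4021 CPM, and at 4635, 11049 and 22093 CPM in S13, S2 and S7. In Het 3M they were highest in S14, at 17081 CPM. Of these markers, Acan was at 9.75, 8.20 and 8.64 CPM in Het 3M S8, S10 and S14, and Col10a1 at 6.42, 5.21 and 6.26 CPM. Other markers of the list thus carried the higher sum in S14, which does not by itself show more chondrocytes there. The part of chondrocyte markers in the Mmp3 values was not tested.

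For Het 12M minus WT 12M the log2 difference of Mmp3 was -3.35 ± 0.86 (SE), with p = 0.00121 and adjusted p = 0.219, with a 95% interval of -5.16 to -1.53. For WT 12M minus WT 3M it was 3.85 ± 1.02 (SE), with p = 0.00168 and adjusted p = 0.481, with an interval of 1.68 to 6.01. The interaction was -5.35 ± 1.33 (SE), with p = 0.000917 and adjusted p = 0.498. Mmp3 was thus the member with the smallest p in each of these 3 comparisons, none of them past the threshold after adjustment in edgeR. DESeq2 gave adjusted p of 0.00912, 0.00733 and 0.0164 for the same 3 comparisons. At 3 months the value rested on a single culture: Het 3M minus WT 3M was 2.002 ± 0.99 (SE), with p = 0.0611 and adjusted p = 1, and -0.63 (p = 0.504) without S14. Without S14 the interaction was -2.72 (p = 0.0238). Mmp10, the stromelysin-2 gene, was at most 0.613 CPM, and Mmp11, whose product is activated inside the cell by furin, ran from 7.52 to 33.2 CPM with all groups overlapping.

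**Figure D4:**
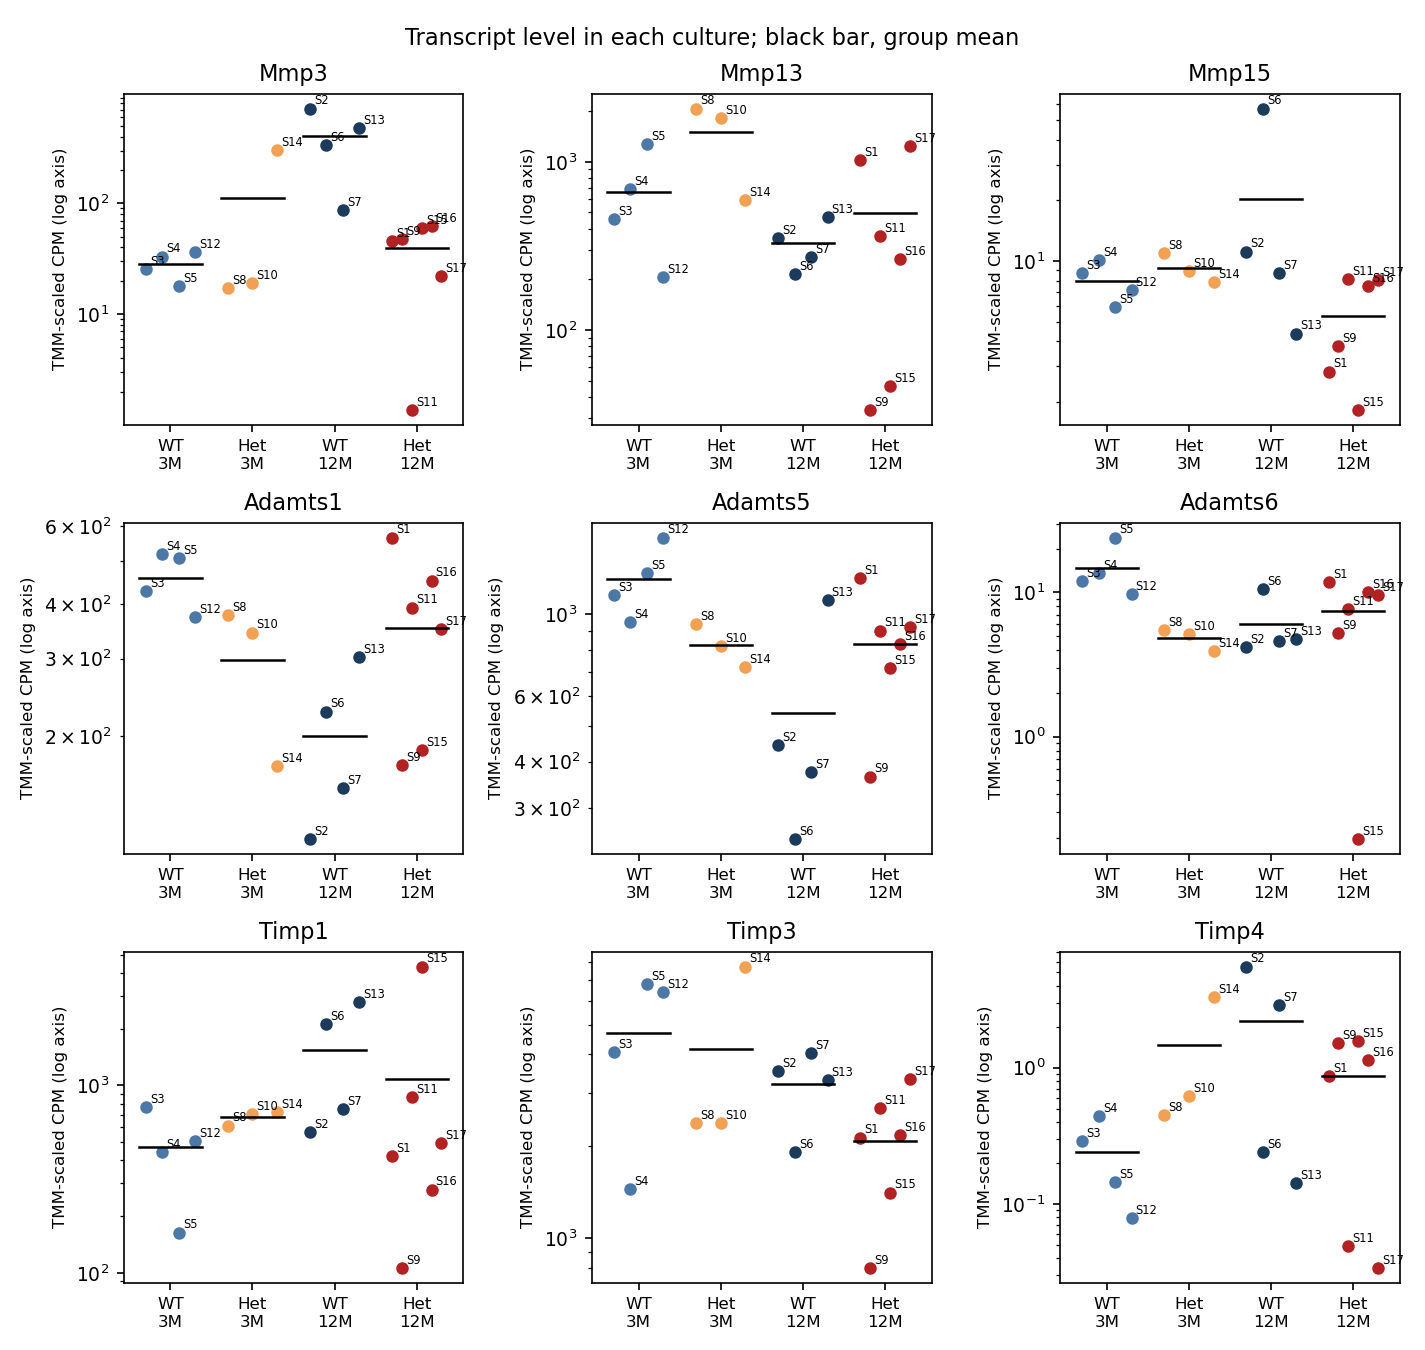
Level of 9 genes in each culture (points, named by S number; TMM-scaled CPM on a log axis) with the group mean as a bar. Mmp3 is higher in all 4 libraries labelled WT 12M than in WT 3M or Het 12M, Adamts1 is lower in WT 12M than in all WT 3M cultures, and single cultures set the extremes of Mmp15 (S6), Adamts6 (S15) and Timp1 (S15).

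Mmp12, which encodes macrophage elastase, varied over the widest range of the members above 20 CPM on average, from 0.131 to 107 CPM. It was at 61.2, 43.9, 14.3 and 7.75 CPM in WT 3M S3, S4, S5 and S12, and at 67.02, 55.95 and 5.97 CPM in Het 3M S8, S10 and S14. Values in the older cultures were 107, 0.336, 13.8 and 0.380 CPM in WT 12M S2, S6, S7 and S13, while Het 12M ran from 0.131 CPM in S15 to 78.3 CPM in S17, with a median of 26.9 CPM. The 3 cultures under 1 CPM, WT 12M S6, WT 12M S13 and Het 12M S15, had the lowest summed macrophage markers of all (48.9, 72.01 and 35.6 CPM), while Het 12M S9, with the highest, had 29.1 CPM. The part of macrophages in the Mmp12 values was not tested.

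Of the membrane-type MMPs, Mmp14 (Entrez Gene 17387, chr14:54431598-54442456) was the most abundant. Its product cleaves collagen at the cell surface and activates the precursor of MMP2 together with TIMP2. It was at 439.9, 560.0, 337 and 311 CPM in WT 3M S3, S4, S5 and S12, and at 426, 409 and 228 CPM in Het 3M S8, S10 and S14. At 12 months it was at 293, 800.3, 316 and 370.3 CPM in WT 12M S2, S6, S7 and S13, while Het 12M ran from 336 CPM in S1 to 516 CPM in S11, with a median of 404 CPM. Apart from the high value in S6 and the low value in S14 the groups held alike levels, and all overlapped. Mmp16 ran from 12.4 to 58.7 CPM, its lowest value in WT 12M S6.

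Mmp15 (Entrez Gene 17388, chr8:95352296-95374293) encodes a membrane-type MMP anchored through the membrane like MMP14. The older cultures had 11.1, 56.96, 8.75 and 4.37 CPM in WT 12M S2, S6, S7 and S13, while Het 12M ran from 1.83 CPM in S15 to 8.13 CPM in S11, with a median of 5.64 CPM. The 3-month cultures had 8.73, 10.1, 5.91 and 7.16 CPM in WT 3M S3, S4, S5 and S12, and 10.9, 8.87 and 7.85 CPM in Het 3M S8, S10 and S14. S6 was far above every other culture, and without it the ranges of WT 12M and Het 12M still overlapped. The log2 difference of Het 12M minus WT 12M was -1.92 ± 0.57 (SE), with p = 0.00397 and adjusted p = 0.32, and -0.59 (p = 0.198) without S6. The interaction was -2.12 ± 0.89 (SE), with p = 0.029 and adjusted p = 0.791, and -0.81 (p = 0.236) without S6. Mmp17, whose product is held by a lipid anchor, was 66.8 CPM in S6 and at most 11.5 CPM elsewhere. Mmp24 was at most 0.689 CPM.

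The remaining MMPs are Mmp19, Mmp21, Mmp23, Mmp27 and Mmp28. Mmp23, whose product is a membrane protein released by cleavage, ran from 72.96 to 332 CPM, and Mmp19, a secreted MMP, from 30.4 to 119 CPM, both with overlapping groups. For Mmp19, 29% of the exon bases overlap other genes, so reads may be split. Mmp27 ran from 0.119 to 9.96 CPM, its highest value in Het 12M S9.

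Mmp28 (Entrez Gene 118453, chr11:83440768-83463040) encodes epilysin, a secreted MMP of skin and other epithelia. It was at 13.3, 15.03, 13.6 and 13.97 CPM in WT 12M S2, S6, S7 and S13, and in Het 12M from 3.89 CPM in S9 to 11.7 CPM in S11, with a median of 8.79 CPM. The younger cultures had 11.7, 12.8, 10.8 and 19.3 CPM in WT 3M S3, S4, S5 and S12, and 10.7, 10.004 and 9.55 CPM in Het 3M S8, S10 and S14. The Het cultures lay below the WT cultures at both ages with no overlap, though S8 nearly met WT 3M S5. At 3 months the unadjusted p of Mmp28 in edgeR was not under 0.05. At 12 months the separation rests on the libraries labelled WT 12M, whose labels are in doubt. How many of all genes part in this way is not given here. Het 12M minus WT 12M was -0.81 ± 0.27 (SE), with p = 0.00807 and adjusted p = 0.406 on the log2 scale, and -0.49 (p = 0.0405) without WT 12M S6, Het 12M S9 and Het 12M S15. Of its exon bases, 13.1% overlap a gene named 1700020L24Rik.

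**Figure D5:**
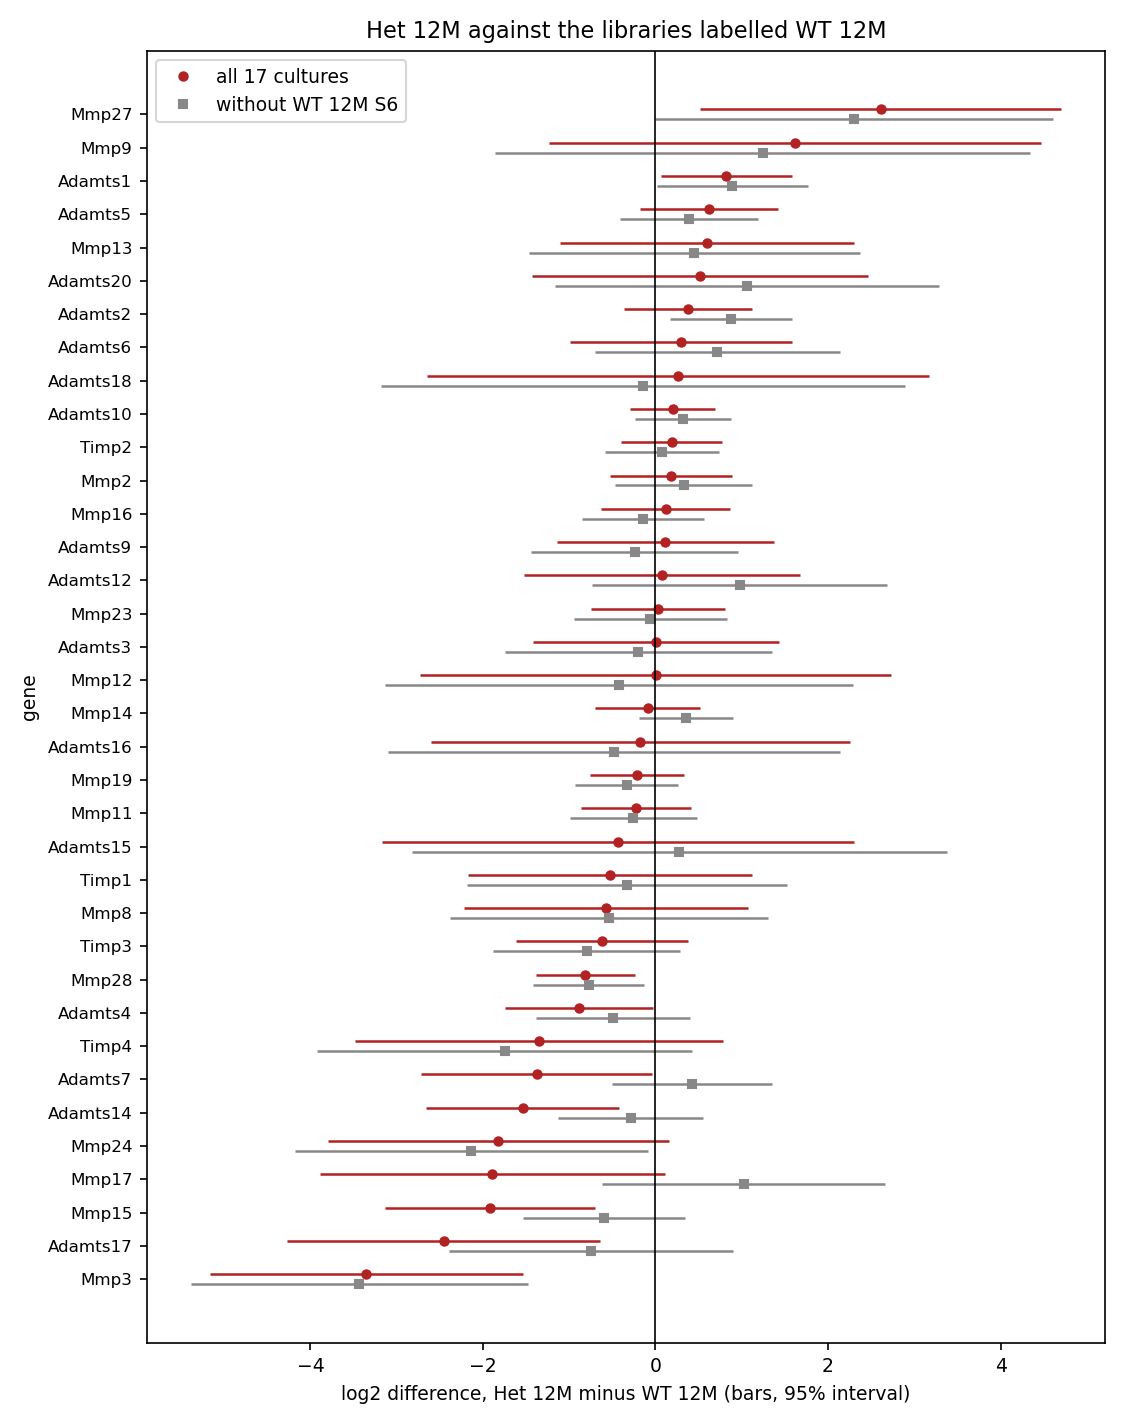
Log2 difference of Het 12M minus WT 12M with its 95% interval for the 36 tested genes, from all 17 cultures (circles) and without WT 12M S6 (squares). Mmp3 and Mmp28 keep their values without S6, while Mmp15, Mmp17, Adamts7, Adamts14 and Adamts17 move towards or past 0.

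Among the ADAMTS that cleave proteoglycans, Adamts5 (Entrez Gene 23794, chr16:85858157-85901125) and Adamts1 (Entrez Gene 11504, chr16:85793827-85803113) were the most abundant and lie 55.0 kb apart on chromosome 16. ADAMTS5 is the main aggrecan-cleaving enzyme of mouse cartilage, and ADAMTS1 cleaves aggrecan and versican. Adamts1 was at 427, 519, 508 and 373 CPM in WT 3M S3, S4, S5 and S12, and at 376, 344 and 171 CPM in Het 3M S8, S10 and S14. Values in the older cultures were 117, 227, 152 and 303 CPM in WT 12M S2, S6, S7 and S13, while Het 12M ran from 172 CPM in S9 to 566 CPM in S1, with a median of 371 CPM. All 4 libraries labelled WT 12M were below all 4 WT 3M cultures, while Het 12M overlapped both. WT 12M minus WT 3M was -1.19 ± 0.39 (SE), with p = 0.00717 and adjusted p = 0.552 on the log2 scale, and the interaction was 1.44 ± 0.55 (SE), with p = 0.0188 and adjusted p = 0.729.

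Adamts5 was at 1127, 952, 1293 and 1614 CPM in WT 3M S3, S4, S5 and S12, and at 942, 819 and 719.8 CPM in Het 3M S8, S10 and S14. At 12 months it was at 443, 247, 374 and 1095 CPM in WT 12M S2, S6, S7 and S13, while Het 12M ran from 364 CPM in S9 to 1255 CPM in S1, with a median of 867 CPM. In the libraries labelled WT 12M, S2, S6 and S7 were under all WT 3M cultures and S13 was within their range, and all 3 Het 3M cultures were below WT 3M, with S8 close to WT 3M S4. WT 12M minus WT 3M was -1.21 ± 0.41 (SE), with p = 0.00969 and adjusted p = 0.552.

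Adamts4, the other main aggrecanase gene, was far lower, from 5.93 to 42.2 CPM, with its highest value in WT 12M S6. It was at 24.1, 42.2, 17.98 and 14.01 CPM in WT 12M S2, S6, S7 and S13 and at 14.3, 22.8, 7.64 and 5.93 CPM in WT 3M S3, S4, S5 and S12, and the interaction was -1.41 ± 0.63 (SE), with p = 0.0386 and adjusted p = 0.836, and -0.79 (p = 0.216) without WT 12M S6, Het 12M S9 and Het 12M S15. Adamts9, whose product cleaves versican, ran from 6.39 to 88.9 CPM with overlapping groups, and 9.8% of its exon bases overlap other genes. Adamts15 and Adamts20 were at most 3.67 and 0.749 CPM.

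The procollagen N-propeptidases, which remove the amino-terminal propeptide of fibrillar procollagens, were led by Adamts2 at 68.5 to 323 CPM. It was at 187, 323, 164 and 129 CPM in WT 3M S3, S4, S5 and S12, and at 68.5, 217, 88.9 and 89.7 CPM in WT 12M S2, S6, S7 and S13, with overlap through S6. Adamts3 ran from 0.131 to 7.98 CPM. Adamts14 (Entrez Gene 237360, chr10:61197112-61273419) had 3.62, 19.5, 3.30 and 2.04 CPM in WT 12M S2, S6, S7 and S13, while Het 12M ran from 1.66 CPM in S9 to 3.83 CPM in S16, with a median of 1.92 CPM. Outside S6, its highest value was 4.93 CPM, in WT 3M S4. Its log2 difference of Het 12M minus WT 12M was -1.54 ± 0.53 (SE), with p = 0.01 and adjusted p = 0.425, and -0.29 (p = 0.478) without S6.

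Adamts7 and Adamts12, whose products cleave cartilage oligomeric matrix protein, ran from 2.62 to 54.99 CPM and 1.18 to 43.8 CPM. Both were highest in WT 12M S6, at 54.99 and 43.8 CPM, and lowest in Het 12M S15. Without S6 the highest Adamts7 value was 17.4 CPM.

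Adamts6 and Adamts10 act on fibrillin microfibrils. Adamts6 (Entrez Gene 108154, chr13:104286518-104496695) was at 12.1, 13.5, 23.99 and 9.69 CPM in WT 3M S3, S4, S5 and S12, and at 5.47, 5.16 and 3.92 CPM in Het 3M S8, S10 and S14. The older cultures had 4.19, 10.6, 4.57 and 4.75 CPM in WT 12M S2, S6, S7 and S13, while Het 12M ran from 0.196 CPM in S15 to 11.8 CPM in S1, with a median of 8.58 CPM. All 3 Het 3M cultures were below all 4 WT 3M cultures. Het 3M minus WT 3M was -1.61 ± 0.75 (SE), with p = 0.0464 and adjusted p = 1 on the log2 scale, the only member under an unadjusted p of 0.05 in that comparison, and -1.48 (p = 0.117) without S14. Over 28 alternatives the value ran from -1.75 to -1.21. Of these, 1 passed the threshold, voom with quality weights, with an adjusted p of 0.0039. In this comparison voom also called Timp2, Adamts10, Adamts18 and Mmp13 and a large number of other genes, as counted in the closing section. Adamts10 ran from 27.2 to 71.03 CPM with overlapping groups, and Het 12M minus Het 3M was 0.49 ± 0.26 (SE), with p = 0.0785 and adjusted p = 0.946, and 0.297 (p = 0.327) without Het 3M S10.

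Adamts17 (Entrez Gene 233332, chr7:66839699-67153171), linked to fibrillin matrices, was at 0.632, 5.09, 0.659 and 0.190 CPM in WT 12M S2, S6, S7 and S13, and in Het 12M from 0 CPM in S15 to 0.622 CPM in S9, with a median of 0.278 CPM. The 3-month cultures ran from 0.171 to 0.928 CPM, so S6 alone was above 1 CPM. Het 12M minus WT 12M was -2.46 ± 0.86 (SE), with p = 0.011 and adjusted p = 0.425, and -0.75 (p = 0.35) without S6. Adamts16 and Adamts18 were at most 4.15 and 0.817 CPM. Adamts13, the protease of von Willebrand factor, had at most 0.328 CPM. WT 12M S6 thus held the highest value of Mmp14, Mmp15, Mmp17, Adamts4, Adamts7, Adamts12, Adamts14 and Adamts17, beside the highest Schwann cell markers. Its summed smooth muscle and pericyte markers were also the highest, at 6824 CPM against at most 5141 CPM elsewhere. The part of either type of cell in these values was not tested.

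Het 12M S15 was at the other end for many of these enzymes. It had the lowest value of Mmp2, Mmp11, Mmp8, Mmp12, Mmp15, Mmp19, Adamts3, Adamts6, Adamts7, Adamts12 and Adamts17 and the highest of Mmp23 and Timp1, beside the lowest Prrx1, at 171 CPM.

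The inhibitors were the most abundant group. Timp1 (Entrez Gene 21857, chrX:20870166-20874737), a secreted inhibitor that binds MMP9 and its precursor, was at 766, 440.2, 164 and 507 CPM in WT 3M S3, S4, S5 and S12, and at 611, 702 and 723 CPM in Het 3M S8, S10 and S14. Values in the older cultures were 562, 2117, 750.4 and 2779 CPM in WT 12M S2, S6, S7 and S13, while Het 12M ran from 107 CPM in S9 to 4313 CPM in S15, with a median of 457 CPM. Both the highest and the lowest culture were Het 12M, S15 and S9, and all groups overlapped.

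Timp2 (Entrez Gene 21858, chr11:118301061-118355411), whose product both inhibits MMPs and takes part in activation of the MMP2 precursor, was the steadiest inhibitor. It was at 4937, 4060.1, 2860.1 and 4917 CPM in WT 3M S3, S4, S5 and S12, and at 3283, 3041 and 3803 CPM in Het 3M S8, S10 and S14. At 12 months it was at 3360.5, 2327, 3983 and 2419 CPM in WT 12M S2, S6, S7 and S13, while Het 12M ran from 2364 CPM in S9 to 4653 CPM in S15, with a median of 3287 CPM. The highest culture was within 2.12 times of the lowest.

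Timp3 (Entrez Gene 21859, chr10:86300412-86349505) encodes the inhibitor that binds the matrix and also blocks ADAMTS4 and ADAMTS5. It was at 4077, 1453, 6808 and 6401 CPM in WT 3M S3, S4, S5 and S12, and at 2378, 2389.8 and 7755 CPM in Het 3M S8, S10 and S14. The older cultures had 3534, 1914, 4047 and 3298 CPM in WT 12M S2, S6, S7 and S13, while Het 12M ran from 801 CPM in S9 to 3311 CPM in S17, with a median of 2157 CPM. Het 3M S14 was the highest culture and Het 12M S9 the lowest. Het 12M minus Het 3M was -1.003 ± 0.51 (SE), with p = 0.0642 and adjusted p = 0.946, the smallest p of that comparison among the members, and -0.19 (p = 0.725) without S14. Of its exon bases, 36.7% overlap Syn3, and a library that does not keep the strand cannot part the 2 genes there.

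Timp4 was scarce, at 0.287, 0.443, 0.144 and 0.0791 CPM in WT 3M S3, S4, S5 and S12, and at 0.448, 0.619 and 3.30 CPM in Het 3M S8, S10 and S14. Values in the older cultures were 5.51, 0.240, 2.86 and 0.143 CPM in WT 12M S2, S6, S7 and S13, while Het 12M ran from 0.0340 CPM in S17 to 1.57 CPM in S15, with a median of 1.00 CPM. All 3 Het 3M cultures were above WT 3M, with S8 close to WT 3M S4, and of the libraries labelled WT 12M, S2 and S7 were above WT 3M while S6 and S13 were within its range. Het 3M minus WT 3M was 2.58 ± 1.27 (SE), with p = 0.0584 and adjusted p = 1, and 1.15 (p = 0.418) without S14. WT 12M minus WT 3M was 3.17 ± 1.24 (SE), with p = 0.0205 and adjusted p = 0.586, and the interaction was -3.94 ± 1.62 (SE), with p = 0.027 and adjusted p = 0.778, and -2.51 (p = 0.157) without S14.

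The family medians of the log2 difference were set beside that of all tested genes. For Het 3M minus WT 3M the median was -0.02 over 16 Mmp genes, -0.47 over 16 Adamts and 0.18 over 4 Timp genes, against -0.02 over all 14897, with 11 of 16 Adamts genes lower. For Het 12M minus WT 12M it was -0.15, 0.09 and -0.57 in the same order, against 0.05 over all genes, with 9 of 16 Mmp, 6 of 16 Adamts and 3 of 4 Timp genes lower. For WT 12M minus WT 3M it was 0.11, -0.03 and 0.63, against 0.04. For Het 12M minus Het 3M it was -0.25, 0.08 and -0.37, against 0.07. For the interaction it was -0.41 (Mmp), 0.55 (Adamts) and -0.75 (Timp), against 0.08 over all genes. These medians describe the lists, and none was tested.

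Genes that act with these proteases gave a like picture. Lists of activators, inhibitors other than TIMPs, clearance receptors, ADAMTS-like proteins, ADAM proteases, other matrix proteases, matrix substrates and the AP-1, ETS and RUNX factors held 0 genes past the adjusted threshold in all 5 comparisons. At an unadjusted p under 0.05 for Het 12M against WT 12M, 1 of 8 tested inhibitors and 3 of 19 matrix substrates were lower in Het, where 8.36% of all genes were under that level in either direction. In the same comparison 1 substrate, 1 of 9 ADAM proteases, 2 of 6 other matrix proteases and 2 of 10 transcription factors were higher, and 1 of 5 ADAMTS-like genes was lower. Serpine2, an inhibitor of plasminogen activators and thrombin, had a log2 difference of -1.09 ± 0.35 (SE, p = 0.0061, adjusted p = 0.382), and Fos, a subunit of AP-1, of 1.42 ± 0.48 (SE, p = 0.00895, adjusted p = 0.423). For WT 12M against WT 3M the 2 with the smallest p were Tfpi2, a serine protease inhibitor, at 1.55 ± 0.57 (SE, p = 0.015, adjusted p = 0.567), and Adam9 at -0.64 ± 0.24 (SE, p = 0.0155, adjusted p = 0.567). Serpine2 had the smallest p of these lists in the other 3 comparisons too. Its log2 value was 1.00 ± 0.41 (SE, p = 0.0279, adjusted p = 1) for Het 3M minus WT 3M, -1.29 ± 0.37 (SE, p = 0.00309, adjusted p = 0.946) for Het 12M minus Het 3M and -2.09 ± 0.54 (SE, p = 0.00132, adjusted p = 0.504) for the interaction.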

How the data were processed

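The authors deposited a table of raw read counts per Entrez Gene identifier, with 68 columns for 4 technical replicates of 17 cultures. Per the submitters' processing notes, reads were aligned to mm10 with Subread and counted with featureCounts. Their versions, the gene models used and the treatment of multiply mapped reads are not given in the sources used here. Per the labels' protocols the TruSeq RNA v2 kit was used, which does not mark strand, so overlapping genes cannot be told apart. Technical replicates differed by little more than counting error (chi-square per degree of freedom 1.02 to 1.06) and were summed. Symbols and gene positions came from RefSeq (25275 identifiers), and the other 1904 held 0.573% of counts. Exon lengths came from GENCODE M21.

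Counts were fitted with edgeR 4.0.16 (R 4.3.3): TMM scaling, filterByExpr, a term per group over 17 cultures, 2-sided quasi-likelihood tests, Benjamini-Hochberg adjustment over 14897 genes and a threshold of 0.05. The biological coefficient of variation was 0.512. The labelled sex was no term in the main model because sex-linked transcripts failed to match it in all 4 libraries labelled WT 12M. It was a covariate in an alternative fit. The code was tested on simulated counts. Alternatives were DESeq2 1.42.0, limma 3.58.1 voom with sample quality weights, other scalings, filters, covariates and samples. Statistics are given for at most 5 members per comparison, those with the smallest p. Per-culture values are given for members that average at least 20 CPM or have statistics, with ranges where groups overlap. Members, lists and rules were chosen with earlier results of these data known. Changes on the log2 scale are the first group minus the second.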

Additional observations from a re-analysis of the deposited data

Results flagged for a closer look

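On log2(CPM + 0.5), Dixon's test at the 95% level was applied to 72 sets of values, each a member within WT 3M, WT 12M or Het 12M that averages at least 20 CPM or has statistics above, and 6 sets held a culture far from the others, where chance alone flags about 1 in 20. Het 3M, with 3 cultures, was not tested.

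Mmp3 was 1.37 CPM in Het 12M S11, against 22.2 to 62.7 CPM in the other 5 Het 12M cultures. Mmp19 in Het 12M S15 was 30.4 CPM, against 79.9 to 106 CPM in the others. Adamts6 in the same culture was 0.196 CPM, against 5.24 to 11.8 CPM. Adamts6 in WT 12M S6 was 10.6 CPM, against 4.19 to 4.75 CPM in the other 3 libraries labelled WT 12M. Mmp16 in S6 was 12.4 CPM, against 33.4 to 40.5 CPM. Mmp16 was also apart in WT 3M S12, at 21.6 CPM against 37.8 to 41.9 CPM. Of the 6 values, 5 lie below their group and 1, Adamts6 in S6, above it.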

How the results depend on the processing

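Over 20 member results with statistics and up to 28 alternatives each, 546 of 548 refitted values kept their direction and 9 passed an adjusted p of 0.05. The 2 reversed values were Mmp3 for Het 3M against WT 3M, at -0.41 with voom and -0.63 without Het 3M S14; over all left-out cultures it ran from -0.63 to 2.50. DESeq2 called 106 genes for Het 12M against WT 12M, 53 for WT 12M against WT 3M, 1 for Het 12M against Het 3M and 35 for the interaction, with Mmp3 the 1 member called in each of the first, second and last. Voom with quality weights was fitted to the same 14897 genes, 36 of them members. It called 1292 genes and 5 members for Het 3M against WT 3M, 171 and 1 for Het 12M against WT 12M, 1508 and 7 for WT 12M against WT 3M, 1 and 0 for Het 12M against Het 3M, and 939 and 5 for the interaction. Its sample weights ran from 0.118 (Het 12M S15) to 8.88 (Het 3M S8), and the cause of the larger counts was not tested.

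Leaving out 1 culture gave 0 to 2 genes for Het 12M against WT 12M (1 without WT 12M S7, 2 without WT 12M S13) and 0 to 1 for WT 12M against WT 3M (1 without Het 12M S15), and leaving out WT 12M S6 with Het 12M S9 and S15 gave 2 for the latter. Members under an unadjusted p of 0.05 numbered 5 (without WT 12M S6) to 10 for Het 12M against WT 12M, 3 to 8 for WT 12M against WT 3M (7 without WT 12M S7, 8 without WT 12M S13 or Het 12M S15), 3 (without Het 3M S8) to 7 for the interaction, and 0 to 2 for each of the other comparisons. No paired analysis was possible because each S number marks a single culture and the replicate numbers mark technical replicates of it. Some members had no value under a filter of 1 CPM in 3 samples or from technical replicate 1 alone, and a fit of 2 groups gives no interaction. Depth limits the members under 1 CPM, whose values rest on few counts.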
